A study of Mus musculus with 18 samples.

Results

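Undifferentiated TKO ESCs were compared with undifferentiated wt ESCs over all 35512 probe sets of the array. Both lines are mouse J1 ESCs of the strain 129Sv/Jae, taken at day 0. The wt line carries intact methyltransferase genes, and the TKO line has the genotype dnmt1-/-, dnmt3a-/-, dnmt3b-/-. Each line was represented by 2 arrays, labelled biological replicates 1 and 2, so that 4 of the 18 arrays of the series entered the comparison directly. The other 14 arrays hold *Dnmt1-/-* ESCs and the embryoid bodies (EBs) of all 3 lines at day 4 and day 16. EBs are aggregates in which ESCs grown in hanging drops differentiate. The labels name 1 line per genotype, and clones and feeders were not given in the sources used here, so the genotype cannot be told apart from other differences between the lines.

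DNA methylation is placed on cytosines of CpG dinucleotides. Dnmt3a and Dnmt3b set new marks, and Dnmt1 copies existing marks to the daughter strand after replication. Promoters rich in CpG are mostly free of methylation in ESCs, but a small class of them is methylated and silent outside the germ line, among them promoters of meiotic genes and of genes in the piRNA pathway, which restrains transposons in germ cells. ESCs without any of the 3 enzymes still grow and keep their stem cell character, which makes them a common model for asking which genes depend on the mark. The comparison asks which transcripts differ when the mark is absent before differentiation begins.

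The values are log2 signals per probe set, so that a difference of 1 is a 2-fold change. A limma model with a mean for each group was fitted over the 18 arrays, and a probe set was called when it differed at least 2-fold with a false discovery rate under 0.05. At this rule 108 probe sets were called (0.304% of 35512), 76 higher in TKO (0.214%) and 32 lower (0.0901%). The 76 came from 40 probe sets with 1 gene symbol, 17 with several symbols of related genes and 19 with none. The 32 came from 28 probe sets with 1 symbol, which belong to 24 genes, and 4 with none. The median fold change of all probe sets was -0.02 on the log2 scale and the median SE of a fold change 0.20. Over the probe sets of an array pair, which are not replicates, the 2 wt arrays correlated with r = 0.987 and the 2 TKO arrays with r = 0.988.

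The calls in the 2 directions differed in their wt signal. Choosing rises on these same arrays favours a low wt signal, and choosing falls a high one. The medians below describe the called probe sets and do not test a difference in signal. The median wt signal of the probe sets called higher was 5.35, against 5.8 for all probe sets, and 47 of the 76 lay below that median in wt. In TKO their median was 7.74. Probe sets called lower had a median of 8.47 in wt and 6.65 in TKO. The rises spanned 2.05-fold to 37.0-fold and the falls 2.01-fold to 7.47-fold.

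**Figure D1:**
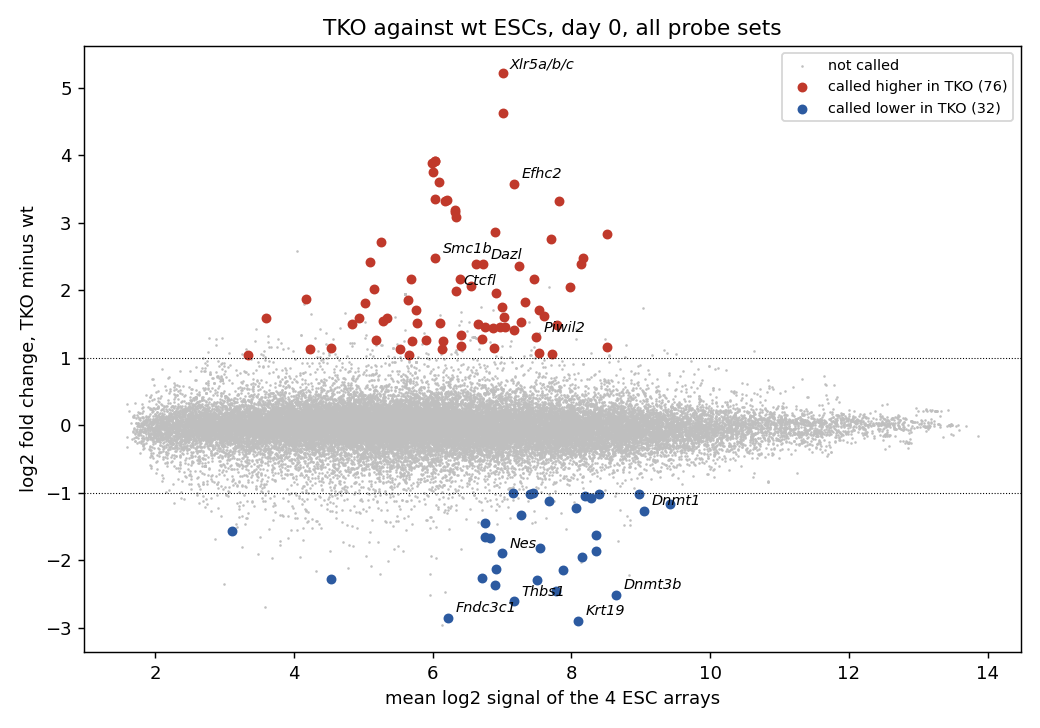
Fold change of every probe set, TKO minus wt ESCs on the log2 scale, against its mean log2 signal on the 4 ESC arrays, with dotted lines at 2-fold. The 76 probe sets called higher (red) reach a log2 fold change of 5.21 and the 32 called lower (blue) reach -2.90.

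The mutated genes were lower in TKO, as a check of the labels. *Dnmt3b* gave log2 signals of 9.80 and 10.002 in wt against 7.33 and 7.45 in TKO (log2 fold change -2.52, SE 0.24, adjusted p = 0.000376). For *Dnmt3a* the wt arrays read 8.87 and 9.45 and the TKO arrays 7.42 and 7.65 (log2 fold change -1.62, SE 0.22, adjusted p = 0.00676). *Dnmt1* stood at 9.60 and 9.77 in wt, against 8.42 and 8.41 in TKO (log2 fold change -1.27, SE 0.16, adjusted p = 0.00346). In none of the 3 genes did the groups overlap, but the TKO signals stayed above 5.8, the median of all probe sets in wt, and where the probes lie relative to the deleted exons was not examined. The *Dnmt1* call was lost without TKO replicate 1 (adjusted p = 0.0518) and the *Dnmt3a* call without wt replicate 2 or TKO replicate 1 (0.0563 to 0.101). No other of the 18 measured genes of the methylation machinery was called. *Dnmt3l*, a cofactor of the *de novo* enzymes without activity of its own, gave 10.12 and 10.06 in wt against 11.32 and 11.06 in TKO, where both TKO arrays were higher but the difference did not pass (log2 fold change 1.10, SE 0.38, adjusted p = 0.342). *Uhrf1*, which guides Dnmt1 to replicated DNA, had a log2 fold change of 0.09, and *Tet1*, which oxidizes methylated cytosine, one of 0.22.

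The labelled cell type was checked by its markers. The 6 ESC markers, among them *Pou5f1*, *Nanog* and *Sox2*, had signals of 9.34 to 12.6 on the 4 arrays, and none of them was called. Of markers of other cells that such cultures can hold, the 8 measured fibroblast markers lay at 2.75 to 7.81. The 5 trophectoderm markers lay at 4.80 to 6.64 and the 6 primitive endoderm markers at 4.99 to 6.72. Of these 19, 0 were called (0.304% of all probe sets were). The 5 trophectoderm markers had a median of 6.50 and 5.75 on the wt arrays and of 5.83 and 5.33 on the TKO arrays. Bulk arrays cannot tell fewer cells of a type from less RNA per cell.

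The promoters of 4 genes from probe sets that rose are shown because they include both CpG-rich promoters of meiotic and germ cell genes and a CpG-poor X-linked one. Each is the 250 bases before the annotated start, from RefSeq (GRCm38.p6), with CpG dinucleotides in capitals. *Dazl* lies on the minus strand (chr17:50293621-50293870, 20 CpG), *Smc1b* on the minus strand (chr15:85131958-85132207, 25 CpG), *Xlr5b* on the plus strand (chrX:73148591-73148840, 14 CpG) and *Efhc2* on the minus strand (chrX:17319942-17320191, 4 CpG).
Dazl: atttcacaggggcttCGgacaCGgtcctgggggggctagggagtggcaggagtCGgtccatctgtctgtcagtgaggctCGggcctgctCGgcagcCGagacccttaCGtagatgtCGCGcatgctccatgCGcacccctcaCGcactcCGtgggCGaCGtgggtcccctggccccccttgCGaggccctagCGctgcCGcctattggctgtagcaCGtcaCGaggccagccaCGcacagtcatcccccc
Smc1b: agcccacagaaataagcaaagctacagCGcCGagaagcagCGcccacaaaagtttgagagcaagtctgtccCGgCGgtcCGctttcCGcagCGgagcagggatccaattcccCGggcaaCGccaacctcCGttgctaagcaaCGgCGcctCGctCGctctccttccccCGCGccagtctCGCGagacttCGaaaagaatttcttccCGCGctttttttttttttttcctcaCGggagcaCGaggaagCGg
Xlr5b: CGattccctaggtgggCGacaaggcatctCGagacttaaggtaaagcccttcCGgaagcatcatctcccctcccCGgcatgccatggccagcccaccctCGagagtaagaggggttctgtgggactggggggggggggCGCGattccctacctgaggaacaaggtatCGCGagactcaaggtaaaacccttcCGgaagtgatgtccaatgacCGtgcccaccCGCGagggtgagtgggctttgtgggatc
Efhc2: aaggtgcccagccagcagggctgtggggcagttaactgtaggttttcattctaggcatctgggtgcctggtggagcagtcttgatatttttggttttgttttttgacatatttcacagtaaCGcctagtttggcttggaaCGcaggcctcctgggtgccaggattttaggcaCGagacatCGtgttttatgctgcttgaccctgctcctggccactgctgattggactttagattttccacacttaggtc

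The largest rises were those of X-linked multicopy families. The *Xlr* genes encode nuclear proteins related to the synaptonemal complex protein Sycp3 and are expressed in lymphoid cells and testis. All 8 probe sets of the *Xlr3*, *Xlr4* and *Xlr5* genes were called higher. One *Xlr5* probe set, shared by *Xlr5a*, *Xlr5b* and *Xlr5c*, gave 4.19 and 4.62 in wt against 9.52 and 9.70 in TKO, a 37.0-fold rise (log2 fold change 5.21, SE 0.23, adjusted p = 8.87e-07). It was the highest of all rises. The other *Xlr5* probe set rose by 4.63 on the log2 scale.

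The 3 *Xlr3* probe sets had wt signals of 4.23 to 4.87 and TKO signals of 7.63 to 7.98, with log2 fold changes of 3.16 to 3.36. The 3 *Xlr4* probe sets had wt signals of 4.41 to 4.85 and TKO signals of 7.85 to 7.95, with log2 fold changes of 3.09 to 3.34. In the *Xlr3* probe set with the highest signal the values were 4.61 and 4.87 in wt against 7.98 and 7.82 in TKO (log2 fold change 3.16, SE 0.16, adjusted p = 8.87e-07). In that of *Xlr4* they were 4.85 and 4.74 in wt against 7.91 and 7.85 in TKO (log2 fold change 3.09, SE 0.21, adjusted p = 1.01e-05). For both families the gap between wt and TKO was several times the distance between replicates. Each of these probe sets is shared by 3 near-identical genes, so the copies cannot be told apart. The calls of all 8 remained when any of the 4 arrays was left out.

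A second group of X-linked probe sets carries the joined entry Gm15023, Gm7903, AV320801, Gm5128 and Pramel3 and was singled out after its values were seen. Its 5 probe sets, 2 of which hold identical signals, lay at 4.04 to 4.46 in wt and 7.86 to 8.0 in TKO. They rose by 3.61 to 3.91 on the log2 scale. Pramel3 belongs to the Prame family of testis antigens, but which of the joined loci gives the signal cannot be read from these probe sets.

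The *Magea* genes, cancer-testis antigens of the male germ line, rose in part. Of 10 *Magea* probe sets 5 were called higher (0.214% of all probe sets were) and 0 lower, and the median log2 fold change of the 10 was 1.72. *Magea4* gave 4.38 and 5.06 in wt against 6.82 and 6.32 in TKO (log2 fold change 1.86, SE 0.26, adjusted p = 0.00736). *Magea5* gave 2.91 and 3.57 in wt against 5.19 and 5.03 in TKO (log2 fold change 1.87, SE 0.32, adjusted p = 0.0271). Signals of both genes were low in wt and separate between the lines. A probe set shared by 6 *Magea* genes gave 4.04 and 4.27 in wt against 6.52 and 5.81 in TKO (log2 fold change 2.01, SE 0.25, adjusted p = 0.00286). Another probe set shared by the same 6 genes gave 3.93 and 3.83 in wt against 6.70 and 5.90 in TKO (log2 fold change 2.42, SE 0.27, adjusted p = 0.00128), the largest *Magea* rise, and kept its call without any single array. The other 4 calls depended on single arrays. The *Magea6* call (log2 fold change 1.58) was lost without any of the 4 (adjusted p up to 0.199), the *Magea4* call without wt replicate 1 or TKO replicate 1 (adjusted p = 0.111 to 0.114), the *Magea5* call without wt replicate 1, TKO replicate 1 or TKO replicate 2 (0.104 to 0.292) and that of the first shared probe set without wt replicate 1 (0.0513). *Magea10* had a log2 fold change of 0.28 and was not called.

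Of 8 probe sets of the *Rhox* homeobox genes, which are expressed in testis, ovary and placenta, only *Rhox13* was called, with signals of 5.18 and 4.99 in wt against 6.25 and 6.41 in TKO (log2 fold change 1.25, SE 0.17, adjusted p = 0.0059). The median of the 8 was 0.18. *Pnma5*, a paraneoplastic antigen gene, gave 6.68 and 6.92 in wt against 8.52 and 8.31 in TKO (log2 fold change 1.62, SE 0.22, adjusted p = 0.00527). *Nxf3*, of the RNA export factor family, gave 6.29 and 6.17 in wt against 7.76 and 7.92 in TKO (log2 fold change 1.61, SE 0.29, adjusted p = 0.0387). Neither gene had overlapping groups. Over the whole list of X-linked testis and placenta families, 10 of 19 measured entries were called higher (0.214% of all probe sets were) and 0 lower, and the median was 1.58, beside -0.02 over all probe sets. The 10 became 4 without wt replicate 1, 5 without TKO replicate 1 and 7 without replicate 2 of either line. Leaving out 1 array took the adjusted p of *Rhox13* to at most 0.0558, that of *Pnma5* to 0.0915 and that of *Nxf3* to 0.232, and the *Rhox13* call was lost without wt or TKO replicate 2, the *Pnma5* call without wt or TKO replicate 1 and the *Nxf3* call without any of the 4.

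The X chromosome carried 17 of the 47 genes or joined entries called higher (36.2%), 3 of the 24 called lower (12.5%) and 785 of the 20540 measured genes (3.82%). Families of near-identical genes count once here for each entry, not once for each copy. No test was made of this share, since neighbouring copies are not independent.

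*Efhc2* was the X-linked single gene with the largest rise. It encodes an EF-hand protein of cilia. Its signals were 5.15 and 5.63 in wt against 8.97 and 8.96 in TKO, an 11.9-fold rise (log2 fold change 3.58, SE 0.19, adjusted p = 8.9e-07). The 2 TKO arrays were nearly equal and the groups far apart. *Scml2*, an X-linked Polycomb-related gene needed in spermatogenesis, gave 5.41 and 5.21 in wt against 7.51 and 7.43 in TKO (log2 fold change 2.16, SE 0.26, adjusted p = 0.00226). *Taf9b*, a subunit of the general transcription machinery with a gene on the X, gave 6.41 and 6.21 in wt against 7.64 and 7.91 in TKO (log2 fold change 1.46, SE 0.23, adjusted p = 0.0171). The calls of *Efhc2* and *Scml2* remained without any single array, and that of *Taf9b* was lost without each of the 4 in turn (adjusted p up to 0.135).

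**Figure D2:**
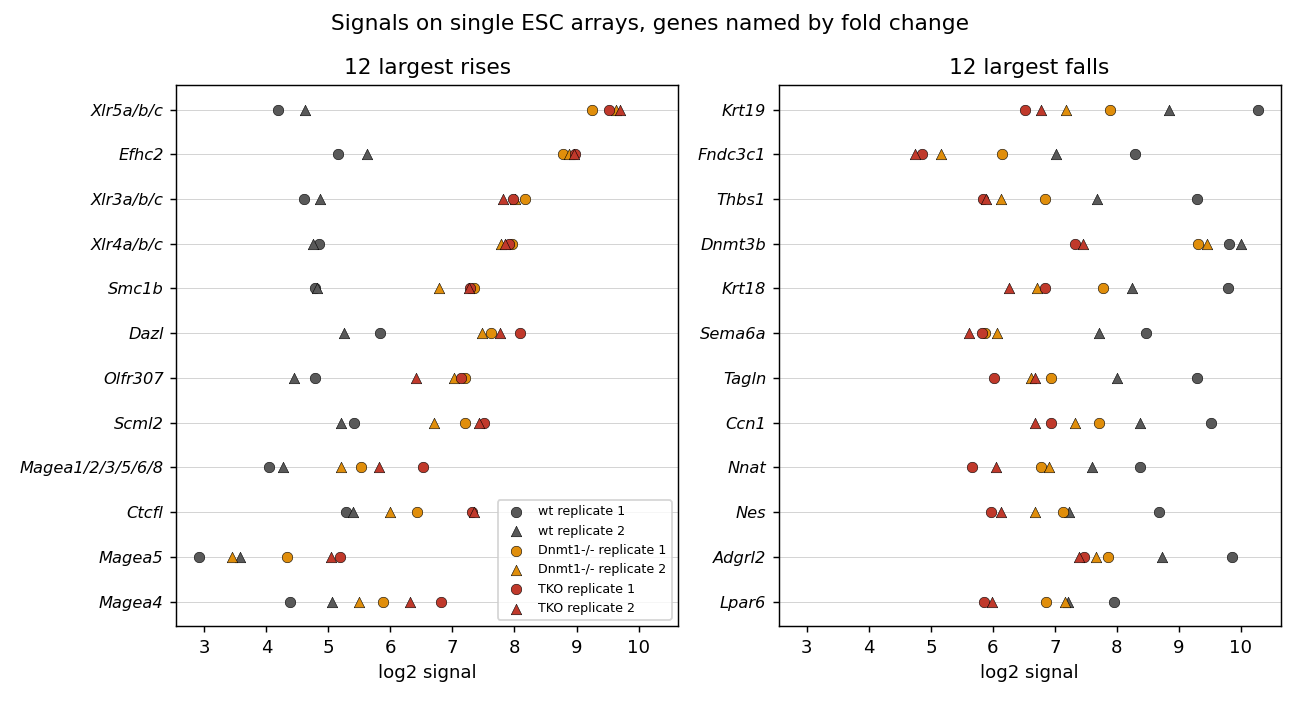
Log2 signal on each of the 6 ESC arrays for the genes with the 12 largest rises (left) and the 12 largest falls (right) in TKO, grey for wt, orange for *Dnmt1-/-* and red for TKO, circles for replicate 1 and triangles for replicate 2. The wt circles lie to the right of the wt triangles for most of the falls, as for *Krt19* at 10.27 and 8.83.

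Genes of the germ line rose as well, and 12 of the 14 called are on autosomes. The genes were read as 3 lists, meiotic chromosome genes, piRNA and germ cell defence genes, and germ cell regulators. Together they had 70 measured genes, of which 14 were called higher and 0 lower (0.214% and 0.0901% of all probe sets were). An unadjusted p under 0.05 was found for 27 and 2 in those directions (8.73% of all probe sets had one in either). The median log2 fold change of the 70 was 0.23. The 14 include *Taf9b*, a subunit of the general transcription machinery, because the lists hold it. The 14 became 6 without TKO replicate 1, 7 without wt replicate 1, 8 without TKO replicate 2 and 10 without wt replicate 2. The lists were drawn up with results of these arrays known, so their counts describe and do not test.

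Of 23 measured meiotic chromosome genes 1 was called, higher in TKO, as were 0.214% of all probe sets. *Smc1b*, the meiotic cohesin subunit, gave 4.79 and 4.82 in wt against 7.28 and 7.27 in TKO, a 5.54-fold rise (log2 fold change 2.47, SE 0.26, adjusted p = 0.000776). The replicates of each line were nearly equal. *Hormad1*, a protein of unsynapsed chromosome axes, has probe sets that both rose but lie on different sides of the threshold. That with the highest signal gave 6.61 and 6.64 in wt against 8.38 and 7.93 in TKO and missed it (log2 fold change 1.53, SE 0.30, adjusted p = 0.0526). Another gave 3.80 and 4.00 in wt against 6.93 and 6.30 in TKO and passed (log2 fold change 2.71, SE 0.26, adjusted p = 0.000317). Among members not called, *Hormad2* had a log2 fold change of 1.17 (adjusted p = 0.0798), *Syce1* of 1.11 (0.123) and *Meiob* of 1.33 (0.274). *Sycp1*, *Sycp3*, *Spo11* and *Dmc1*, which build the synaptonemal complex or make and repair meiotic breaks, had log2 fold changes of 0.14, -0.23, 0.22 and -0.24 and were not called.

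Of 21 measured piRNA and germ cell defence genes 6 were called higher (0.214% of all probe sets were), and the list median was 0.42. Without replicate 1 of either line the count was 1, without TKO replicate 2 it was 2 and without wt replicate 2 it was 4. *Gtsf1*, a zinc finger partner of Piwi proteins, gave 4.56 and 4.53 in wt against 5.95 and 6.31 in TKO (log2 fold change 1.59, SE 0.20, adjusted p = 0.00306). *Asz1*, a mitochondrial scaffold of the pathway, gave 3.88 and 4.30 in wt against 5.76 and 5.41 in TKO (log2 fold change 1.49, SE 0.27, adjusted p = 0.0357). *Mov10l1*, the helicase that starts piRNA production, gave 6.19 and 6.30 in wt against 7.67 and 7.73 in TKO (log2 fold change 1.46, SE 0.20, adjusted p = 0.00708). In each of the 3 genes both TKO arrays lay above both wt arrays. *Gpat2*, a mitochondrial membrane protein, gave 5.76 and 5.73 in wt against 6.99 and 7.18 in TKO (log2 fold change 1.34, SE 0.19, adjusted p = 0.0103). *Piwil2* and *Rnf17*, a Piwi protein and a tudor domain protein, rose by 1.30 and 1.06 on the log2 scale, but the *Piwil2* call was lost without wt or TKO replicate 1 (adjusted p up to 0.0572) and the *Rnf17* call without any of the 4 (up to 0.134). The *Gtsf1* call remained without any single array, whereas *Asz1* and *Gpat2* were lost without any of the 4 (adjusted p = 0.0668 to 0.32 and 0.0636 to 0.109) and *Mov10l1* without wt replicate 1, TKO replicate 1 or TKO replicate 2 (0.0503 to 0.104).

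The other piRNA genes did not pass. *Ddx4*, the germ cell helicase Vasa, had a log2 fold change of -0.11, *Piwil1* of 0.13 and *Tdrd6* of -0.06. *Piwil4* and *Stk31* stood at 0.91 and 1.05 with adjusted p values of 0.0595 and 0.0833. *Tdrd1* had a log2 fold change of -0.69 (adjusted p = 0.111) and *Tdrd5* of -0.75 (0.354), opposite in sign to the called members.

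Of 26 germ cell regulators 7 were called higher (0.214% of all probe sets were), with a list median of 0.22. The count was 4 without TKO replicate 1 and 5 without any other of the 4 arrays. *Dazl*, an RNA-binding protein required for gametes, gave 5.83 and 5.25 in wt against 8.09 and 7.76 in TKO, a 5.23-fold rise (log2 fold change 2.39, SE 0.31, adjusted p = 0.0035). Its call was lost without TKO replicate 1 (adjusted p = 0.0695). *Ctcfl*, the testis paralogue of the insulator protein CTCF, gave 5.29 and 5.4 in wt against 7.31 and 7.35 in TKO (log2 fold change 1.99, SE 0.19, adjusted p = 0.000432). *Nlrp4c*, an NLR gene of the oocyte, gave 4.14 and 4.14 in wt against 5.63 and 5.82 in TKO (log2 fold change 1.58, SE 0.19, adjusted p = 0.00226). The wt arrays were nearly equal for these last 2 genes and the TKO arrays lay far above them. *Sohlh2*, a bHLH factor of early germ cells, rose by 1.53 and kept its call without any single array. *Stra8*, which licenses entry into meiosis, rose by 1.12, a call lost without any of the 4 (adjusted p up to 0.312). The other 2 called members are *Scml2* and *Taf9b*, described above. The list counts *Taf9b* although it belongs to the general transcription machinery. *Nanos2* (0.19) and *Nanos3* (-0.21), which keep germ cells alive and undifferentiated, and *Prdm1* (0.36) and *Tfap2c* (0.07), which specify them, were not called.

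The remaining single genes called higher belong to no list. *Olfr307*, an olfactory receptor gene, gave 4.78 and 4.44 in wt against 7.13 and 6.42 in TKO (log2 fold change 2.17, SE 0.26, adjusted p = 0.00226). *Wfdc15a*, a gene of the whey acidic protein type, rose by 1.82 on the log2 scale. *Nckap1l*, the blood cell subunit of the WAVE complex that drives actin branching, rose by 1.75. All 3 calls remained without any single array. Smaller rises were those of *Dcdc2a* (1.52), *Tuba3b* (1.55), a testis tubulin, *Gpx6* (1.43), *Snx25* (1.42), *Prss50* (1.17), a testis protease, *Gpa33* (1.15), *Camk1d* (1.14), *Pde8a* (1.13), *Ppp3ca* (1.05) and *Dglucy* (1.04). Of these 10 only the *Dcdc2a* call remained whichever array was left out, and the adjusted p of the other 9 reached 0.183 for *Pde8a*, 0.161 for *Ppp3ca* and 0.273 for *Dglucy*. *Dnajc5g* (1.71), *Spink10* (1.12) and the 3 transcripts 1700013H16Rik (1.81), 4930591A17Rik (1.51) and 1700080O16Rik (1.14) rose too. Joined entries of the *Fthl17* ferritin family on the X and of *Mirg* with *Mir410* on chromosome 12 also rose, by 1.5 and 1.24.

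The 19 probe sets without a symbol that were called higher rose by 1.03 to 3.33 on the log2 scale. In 19 of 19 the signal of TKO replicate 1 was above that of replicate 2, by a median of 0.53, against 52.2% of all probe sets and 39 of the 57 called probe sets with a symbol. Without TKO replicate 1 only 4 of the 19 remained called, against 29 of 57. For the same 19 the median of replicate 1 minus replicate 2 was 0.48 in *Dnmt1-/-* ESCs and 0.12 in wt ESCs. What these probe sets detect is not given in the annotation used here. The part of TKO replicate 1, or of the replicate number, in their rise was not tested.

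Over all 76 probe sets called higher, 38 remained without wt replicate 1, 42 without wt replicate 2, 33 without TKO replicate 1 and 51 without TKO replicate 2. The 31 that remained in every case include all 8 *Xlr* probe sets, *Efhc2*, *Smc1b*, *Scml2* and *Ctcfl*. When only the 6 ESC arrays entered the fit, 28 probe sets were called higher and 1 lower.

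**Figure D3:**
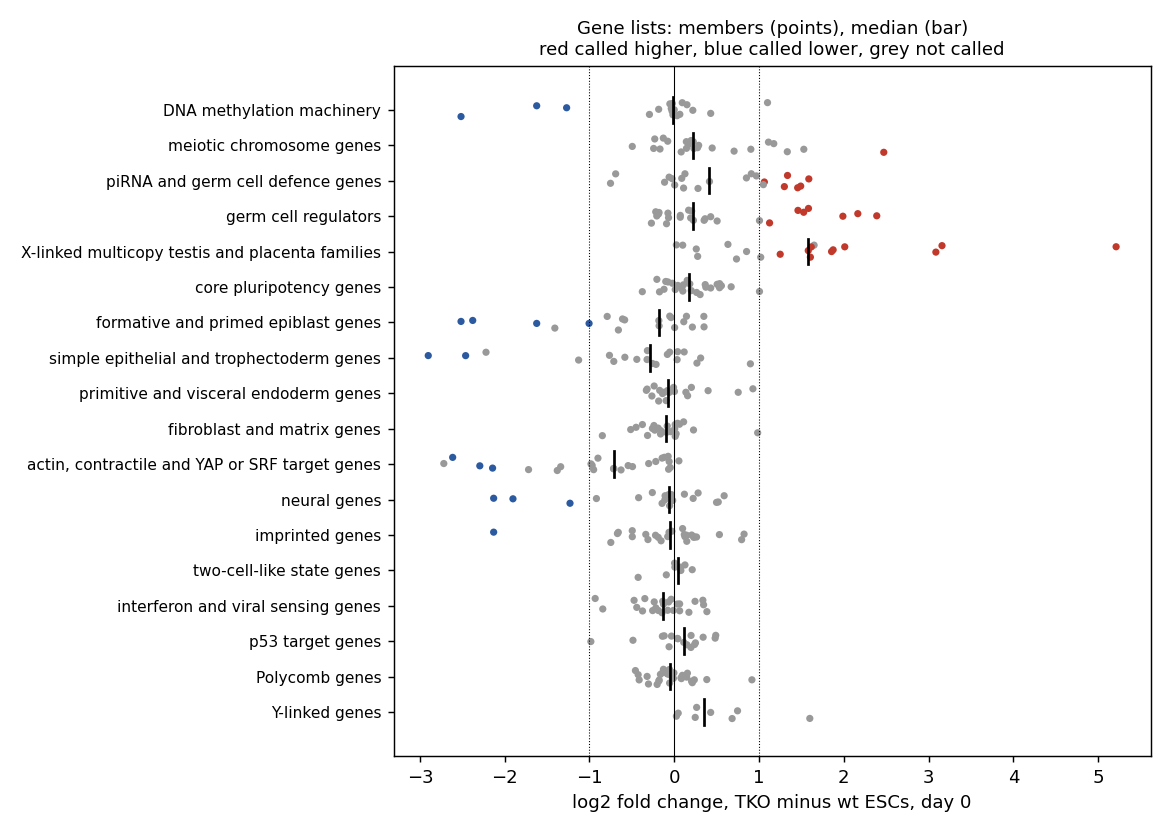
Log2 fold change, TKO minus wt ESCs, of the measured members of each gene list (points), with the list median (black bar) and dotted lines at 2-fold, red for members called higher and blue for members called lower. Red points lie in 4 lists, those of the germ line and the X-linked families, whereas the medians of the pluripotency and fibroblast lists were 0.17 and -0.09.

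Genes of the core pluripotency network did not pass the test in either direction. Of 26 measured genes 0 were called, where 0.304% of all probe sets were, so the count does not set the list apart. An unadjusted p under 0.05 was found for 2, both higher. Of all probe sets 8.73% had one in either direction. The list median was 0.17. *Nanog* gave 10.88 and 10.41 in wt against 11.18 and 11.17 in TKO (log2 fold change 0.53, SE 0.47, adjusted p = 0.929). *Tcl1*, a cofactor of Akt, had the largest difference of the list at 1.01 (SE 0.38).

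The genes lower in TKO lay in other groups. Keratins of simple epithelia, which form intermediate filaments, had the largest fall. *Krt19* gave 10.27 and 8.83 in wt against 6.52 and 6.78 in TKO, a 7.47-fold fall (log2 fold change -2.90, SE 0.44, adjusted p = 0.0139). *Krt18* gave 9.79 and 8.24 in wt against 6.84 and 6.27 in TKO (log2 fold change -2.46, SE 0.46, adjusted p = 0.048). In both genes the TKO arrays were close to each other, whereas wt replicate 1 lay far above wt replicate 2. *Krt8*, the usual partner of *Krt18*, gave 10.68 and 9.20 in wt against 7.97 and 7.47 in TKO and missed the threshold (log2 fold change -2.22, SE 0.44, adjusted p = 0.0567). The *Krt19* and *Krt18* calls were lost without wt replicate 1, TKO replicate 1 or TKO replicate 2 (adjusted p = 0.058 to 0.151 for *Krt19* and 0.163 to 0.32 for *Krt18*). Of 20 measured genes of simple epithelia and trophectoderm these 2 were called lower (0.0901% of all probe sets were) and 0 higher. The list median was -0.29, and the count called lower was 3 without wt replicate 2 and 0 without any other array. *Cdx2*, *Elf5* and *Gata3*, which define trophectoderm, had log2 fold changes of -0.32, -0.08 and -0.21. *Ascl2* of the same list stood at 0.90 (adjusted p = 0.168) and was not called. With an unadjusted p under 0.05, 5 genes of the list were lower and 1, *Ascl2*, higher. Of all probe sets 8.73% had such a p in either direction.

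Genes of the actin cytoskeleton and targets of the YAP and SRF factors, which respond to cell tension, formed the second group. *Thbs1*, thrombospondin of the matrix, gave 9.29 and 7.67 in wt against 5.84 and 5.90 in TKO (log2 fold change -2.61, SE 0.49, adjusted p = 0.0478). *Tagln*, an actin-binding protein of smooth muscle, gave 9.29 and 8.01 in wt against 6.02 and 6.68 in TKO (log2 fold change -2.29, SE 0.38, adjusted p = 0.0244). *Ccn1*, a secreted YAP target, gave 9.52 and 8.37 in wt against 6.93 and 6.67 in TKO (log2 fold change -2.14, SE 0.40, adjusted p = 0.0449). Wt replicate 1 was the highest array in all 3 genes. Of 25 measured genes of the list 3 were called lower (0.0901% of all probe sets were) and 0 higher. Lower with an unadjusted p under 0.05 were 13 (8.73% of all probe sets had such a p in either direction). The median was -0.71, beside -0.02 over all probe sets. *Anxa3* (-2.72, adjusted p = 0.0971), *Ccn2* (-1.72, 0.133) and *Tpm1* (-1.34, 0.0985) were not called, and *Tagln2*, *Myl9* and *Actg2* stood at 0.05, -0.06 and -0.07. In 24 of the 25 genes wt replicate 1 lay above wt replicate 2, and the count called lower was 0 without replicate 1 of either line, 1 without TKO replicate 2 and 6 without wt replicate 2. Without wt replicate 1 none of the 3 calls remained (adjusted p = 0.18 to 0.32 for *Thbs1*, 0.228 to 0.243 for *Tagln* and 0.198 to 0.32 for *Ccn1* over the arrays whose omission ended the call), and the part of that array in the falls was not tested.

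Of 19 measured neural genes 3 were called lower (0.0901% of all probe sets were) and 0 higher, and the list median was -0.07. *Nnat*, an imprinted gene of the developing brain, gave 8.37 and 7.60 in wt against 5.66 and 6.04 in TKO (log2 fold change -2.13, SE 0.33, adjusted p = 0.0139). *Nes*, the intermediate filament of neural progenitors, gave 8.67 and 7.23 in wt against 5.98 and 6.13 in TKO (log2 fold change -1.90, SE 0.35, adjusted p = 0.0429). *Dpysl2*, a regulator of axon growth, gave 8.74 and 8.61 in wt against 7.22 and 7.67 in TKO (log2 fold change -1.23, SE 0.22, adjusted p = 0.0343). The wt arrays lay far apart for *Nes* and close together for *Dpysl2*, and no groups overlapped. The *Nnat* call was lost without wt replicate 1 or TKO replicate 1 (adjusted p = 0.168 to 0.195), the *Nes* call without wt replicate 1, TKO replicate 1 or TKO replicate 2 (0.149 to 0.267) and the *Dpysl2* call without wt replicate 1, wt replicate 2 or TKO replicate 1 (0.106 to 0.295). The count was 0 without replicate 1 of either line and 2 without replicate 2 of either. The other 16 genes were not called, among them *Ncam1* (0.59), *Neurod1* (0.52), *Pax6* (0.28) and *Sox11* (-0.92). *Nnat* was also the 1 imprinted gene that passed among the 26 measured by a probe set of their own. *Meg3* and *Rian*, maternal transcripts of the *Dlk1* locus, had log2 fold changes of 0.82 and 0.79 and did not pass. The imprinted *Mirg* was not among the 26, and its joined entry with *Mir410*, named above, was called higher.

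Genes of the formative and primed epiblast, the state ESCs pass through as they leave naive pluripotency, were called lower in 4 of 19 cases. In this direction 0.0901% of all probe sets were called. Among the 4 genes, 2 are the deleted *Dnmt3a* and *Dnmt3b*. The count was 2 without TKO replicate 1 or wt replicate 2 and 3 without either other array. The others were *Sema6a*, a semaphorin, with 8.47 and 7.71 in wt against 5.82 and 5.61 in TKO (log2 fold change -2.38, SE 0.26, adjusted p = 0.00129), and *Sox4*, with 8.08 and 7.82 in wt against 6.76 and 7.13 in TKO (log2 fold change -1.0, SE 0.19, adjusted p = 0.0497). The *Sema6a* call remained without any single array, and that of *Sox4* was lost without each of the 4 in turn (adjusted p up to 0.353). *Fgf5* (-0.59), *Otx2* (-0.61) and *Pou3f1* (-0.66), the usual markers of this state, were not called. Nor were *Nodal* (0.35), *Lefty2* (0.35) and *Dkk1* (0.21), and the list median was -0.18. Lower with an unadjusted p under 0.05 were 7 of the 19, and higher 0. Of all probe sets 8.73% had such a p in either direction.

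Other falls belong to no list. *Fndc3c1*, an X-linked fibronectin type III protein, gave 8.29 and 7.02 in wt against 4.85 and 4.74 in TKO (log2 fold change -2.86, SE 0.45, adjusted p = 0.0157). *Adgrl2*, a latrophilin adhesion receptor, had 5 of its 8 probe sets called lower, and that with the highest signal gave 9.86 and 8.72 in wt against 7.46 and 7.39 in TKO (log2 fold change -1.86, SE 0.28, adjusted p = 0.0121). *Lpar6*, a receptor for lysophosphatidic acid, gave 7.96 and 7.22 in wt against 5.86 and 5.99 in TKO (log2 fold change -1.66, SE 0.26, adjusted p = 0.0157). Again wt replicate 1 was above wt replicate 2 in each, and the *Fndc3c1* and *Lpar6* calls were lost without wt replicate 1, TKO replicate 1 or TKO replicate 2 (adjusted p = 0.0954 to 0.195 and 0.0714 to 0.197), that of *Adgrl2* without TKO replicate 1 or TKO replicate 2 (0.076 to 0.104). *Lrrc8c*, a subunit of volume-regulated anion channels, fell by 1.44, and its call remained without any single array. *Gja1*, the gap junction protein connexin 43, fell by 1.18, *Clcn5* by 1.12, *Tlcd1* by 1.09, *Ogfr* by 1.05, *Mphosph6* by 1.03, *Sh3bgrl* by 1.02 and *Atxn1l* by 1.01. Each of these 7 calls was lost without 2 or more of the 4 arrays, with adjusted p up to 0.212 for *Gja1* and 0.321 for *Clcn5*.

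Among the 28 called probe sets with a symbol, wt replicate 1 was above wt replicate 2 in 23, by a median of 0.75 over the 28, against 47.3% of all probe sets. Of the 32 calls 7 remained without wt replicate 1, 22 without wt replicate 2, 5 without TKO replicate 1 and 9 without TKO replicate 2. The 3 that remained in every case were *Dnmt3b*, *Sema6a* and *Lrrc8c*. A fit of only the 4 arrays called 4 probe sets lower.

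Other lists held no called gene, where 0.304% of all probe sets were called, so that few calls could fall in lists of their size. None passed among 20 genes of primitive and visceral endoderm, 23 of fibroblasts and matrix, 8 of the 2-cell-like state, 25 of interferon and viral sensing, 17 p53 targets, 32 Polycomb genes and 8 Y-linked genes. An unadjusted p under 0.05 was found in 8.73% of all probe sets, in either direction. It was found in 0 genes of the endoderm list and 0 of the 2-cell-like list. In the fibroblast list 2 genes had one, in the interferon list 3, in the p53 list 1 and in the Polycomb list 4. Of the 8 Y-linked genes 4 had such a p, all 4 higher in TKO, and *Zfy1* was the largest of them with 4.83 and 4.51 in wt against 6.21 and 6.32 in TKO (log2 fold change 1.60, SE 0.37, adjusted p = 0.0887). *Xist*, the RNA that silences an X chromosome in female cells, stayed at 4.29 and 4.50 in wt against 4.58 and 4.50 in TKO.

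The same genes were read in *Dnmt1-/-* ESCs, which keep Dnmt3a and Dnmt3b. That comparison shares the wt arrays with the one above, so the values are set side by side and their likeness is not a result. *Xlr5* gave 9.25 and 9.64 on the *Dnmt1-/-* arrays, *Efhc2* 8.78 and 8.89, *Smc1b* 7.35 and 6.79 and *Dazl* 7.62 and 7.48, beside TKO signals of 9.52 and 9.70, 8.97 and 8.96, 7.28 and 7.27 and 8.09 and 7.76. *Ctcfl* gave 6.43 and 6.0, between the wt signals of 5.29 and 5.4 and the TKO signals of 7.31 and 7.35. *Mov10l1* gave 7.12 and 7.25 and *Piwil2* 7.72 and 7.81, likewise between the lines. Against wt, *Dnmt1-/-* ESCs had 126 called probe sets (0.355%), and of the 76 rises in TKO 46 were called higher there too (0.338% of all were).

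A direct contrast of TKO with *Dnmt1-/-* ESCs called 2 probe sets (0.00563%), both lower in TKO, and 1221 had an unadjusted p under 0.05 (3.44%). One was *Dnmt3b*, at 9.31 and 9.45 in *Dnmt1-/-* and 7.33 and 7.45 in TKO (log2 fold change -1.99, SE 0.24, adjusted p = 0.0472). The other has no symbol and had a log2 fold change of -1.69. Of the 76 probe sets called higher in TKO against wt 0 were called in the direct contrast, and their median difference was 0.38. The same TKO arrays chose these probe sets, which favours a positive difference, so this median is not read as a result. *Ctcfl* had the difference 1.12 (SE 0.19, adjusted p = 0.324), *Mov10l1* 0.51 (SE 0.20) and *Xlr5* 0.17 (SE 0.23). A p that misses the threshold does not show that both mutants are alike.

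The TKO contrast was then read in EBs, whose arrays do not enter the day 0 means but share with them the estimate of the spread. Of the 76 probe sets higher in TKO ESCs, 45 were called higher in TKO EBs at day 4, where 2.11% of all probe sets were, and 61 at day 16, where 2.4% were. None was called lower on either day. The 57 with a symbol gave 42 and 45 of these, and the 19 without a symbol 3 and 16. Of the 32 probe sets lower in TKO ESCs, 2 were called lower at day 4 (0.805% of all) and 7 at day 16 (3.43%), and 1 was called higher at day 4.

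**Figure D4:**
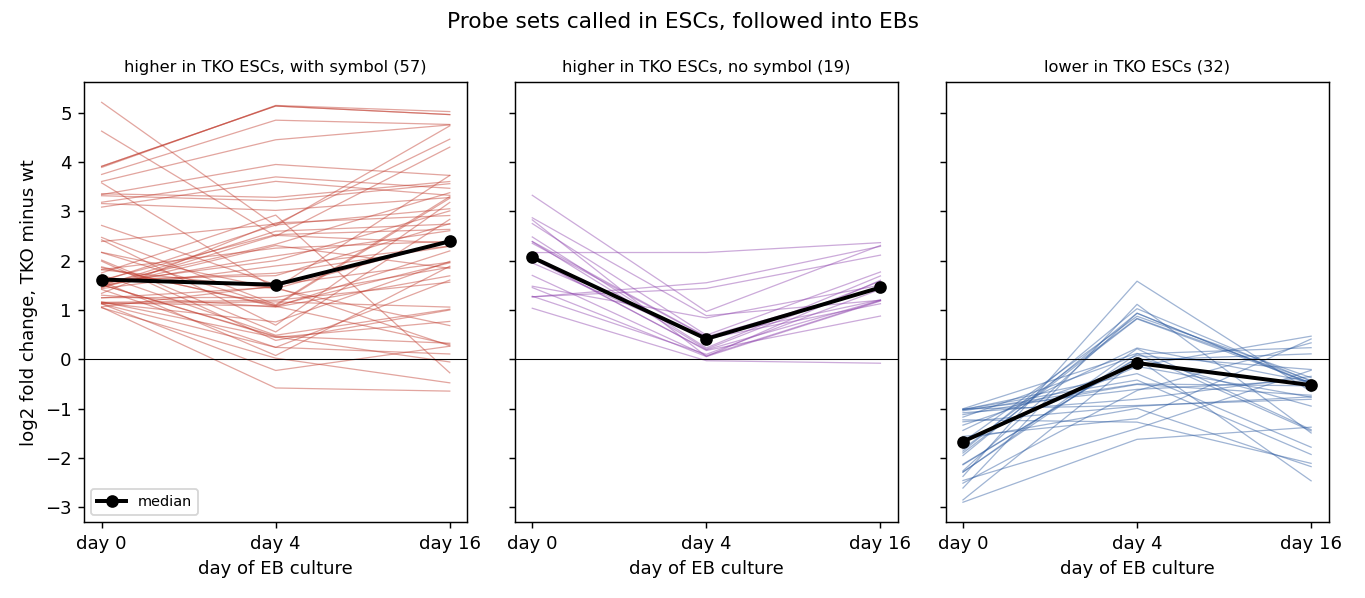
Log2 fold change, TKO minus wt, of the probe sets called at day 0 (thin lines) and their median (black) in ESCs and in EBs at day 4 and day 16. The named rises had medians of 1.51 at day 4 and 2.39 at day 16, the rises without a symbol 0.41 and 1.45, and the falls -0.08 and -0.53.

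More germ line genes were called higher in TKO EBs at day 16 than in ESCs, and so were more of all probe sets (2.4% against 0.214%). *Dazl* gave 5.32 and 5.02 in wt against 9.86 and 9.41 in TKO EBs at day 16, a log2 fold change of 4.46 beside 2.39 in ESCs. The log2 fold change of *Sohlh2* was 2.33 at day 4 and 3.38 at day 16, that of *Mov10l1* 2.51 and 2.36, and that of *Gpat2* 2.76 and 2.92, all called. *Ctcfl* was called on neither day, with 4.92 and 5.34 in wt against 5.6 and 5.42 in TKO at day 4 (log2 fold change 0.38, adjusted p = 0.398). At day 16 its log2 fold change lay just under the line of 1, with an adjusted p of 0.00421. Of the 23 meiotic, 21 piRNA and 26 regulator genes, 11, 10 and 11 were called higher at day 16, where 2.4% of all probe sets were. At day 4 the counts were 5, 10 and 7, with 1 regulator lower, where 2.11% of all were higher. At day 0 they were 1, 6 and 7, where 0.214% of all were higher. The list medians were 0.22, 0.42 and 0.22 at day 0, 0.24, 0.39 and 0.17 at day 4 and 0.84, 0.89 and 0.62 at day 16.

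The difference between days was tested as a contrast of contrasts, which uses the day 0 values that chose the genes. The *Xlr5* rise was smaller at day 4, where wt EBs gave 4.10 and 4.12 and TKO EBs 6.97 and 6.66 (-2.51 against day 0, SE 0.33, adjusted p = 0.00557), and so was that of *Efhc2* (-2.14, SE 0.27, 0.00467). The *Dazl* rise was larger at day 16 (2.08, SE 0.43, 0.0155). *Sema6a* reversed: wt EBs at day 4 gave 7.15 and 7.86 and TKO EBs 9.20 and 8.98, so that it was called higher there (1.58) after being lower in ESCs, and the difference between days was 3.96 (SE 0.37, 0.00243). *Thbs1* and *Nes* stood at 1.11 and 0.82 at day 4, without a call there, and differed from day 0 by 3.73 and 2.72 (adjusted p = 0.0225 and 0.0202). The day 0 calls of both genes were lost without wt replicate 1, as given above. Over all probe sets the effect was higher at day 4 than at day 0 for 1.07% and lower for 0.315%, and at day 16 for 1.69% and 2.22%. No count over the rises or falls is read from this contrast, because their choice at day 0 favours a shift back toward 0.

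The promoters of the called genes were described from RefSeq (GRCm38.p6) by the 250 bases before and 50 after each start, taking for each gene the start with most CpG. The table holds 33 of the 40 genes with a symbol of their own that were called higher. Their median number of CpG was 13, against 8 for all 27025 genes of the table, and 20 of the 33 (60.6%) had at least 10, against 45.8%. The 19 of 24 genes called lower that the table holds had a median of 18, and 15 of them (78.9%) had at least 10. The 9 *Xlr3*, *Xlr4* and *Xlr5* promoters had 1 to 16, with a median of 7.

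The called germ line genes had CpG-rich promoters, but so did those not called. Of the 14 called higher 11 had an entry, with a median of 17 CpG and at least 10 in 10 of the 11 (90.9%). Of the 56 not called 48 had an entry, with a median of 18 and at least 10 in 39 (81.2%). The 48 include *Hormad1*, whose probe set of highest signal was not called, although another probe set places it among the genes called higher. The motif CACGTG, an E-box that reads the same on both strands, occurred in 2 of the 11 and in 16 of the 48 (33.3%), against 7.4% of all promoters. The motif TCCCGC, an E2F-type site searched on both strands, occurred in 3 of the 11 and 20 of the 48 (41.7%), against 21.1%. A match is a description of letters, and no binding was measured.

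**Figure D5:**
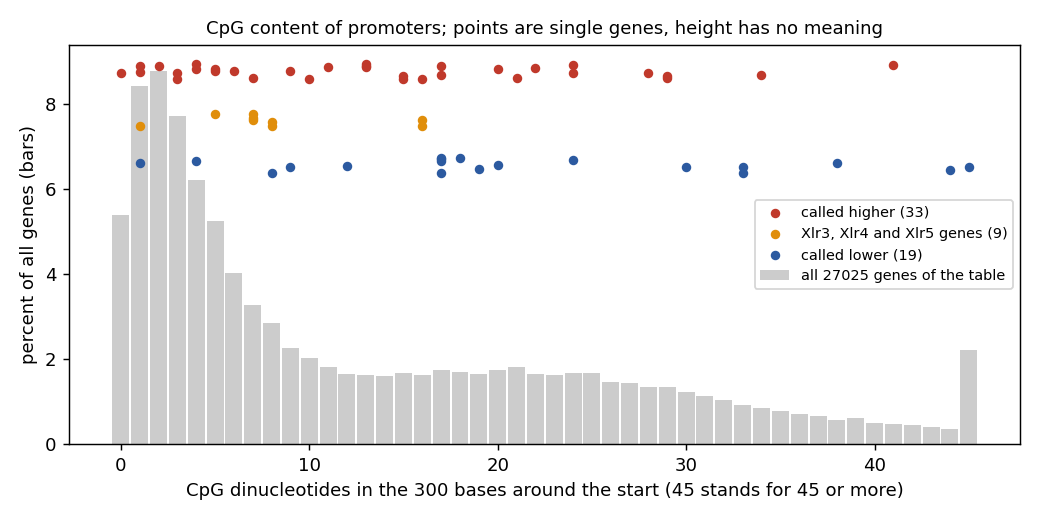
Number of CpG dinucleotides in the 300 bases around the start, for all 27025 genes of the promoter table (bars, percent of genes) and for single genes called higher, *Xlr3*, *Xlr4* and *Xlr5* genes and genes called lower (points, whose height has no meaning). The *Xlr* genes lie between 1 and 16, while genes called higher spread from 0 to 41.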

How the data were processed

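Total RNA of J1 ESCs and EBs was hybridised to Affymetrix Mouse Gene 1.0 ST arrays, 1 array per sample, 18 in all. The deposited values are log2 signals that the authors made by robust multi-array averaging (RMA), per the labels. The software version and filters were not given in the sources used here. A model with 9 group means over the 18 arrays was fitted in limma 3.58.1 (R 4.3.3), the TKO minus wt contrast was moderated by eBayes (9 residual and 3.32 prior degrees of freedom), and p-values were adjusted by Benjamini and Hochberg over 35512 probe sets. A call needed a 2-fold change and an adjusted p under 0.05, after the study's methods. Array precision is limited by the number of arrays, 2 per group, and p-values measure only the spread between these samples.

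Gene symbols came from the platform annotation, updated where possible, and 21789 probe sets had 1 symbol, 1621 several and 12102 none. Of several probe sets for a gene, that of highest mean signal stands for it. Those with several symbols name no gene except in the *Xlr*, *Magea* and *Rhox* families. Named by rule were the 12 largest rises and 12 largest falls among called genes, the 3 mutated genes and up to 4 called members of each list. Others were named after their values were seen. The members and lists were chosen with earlier results of these data known. The fit was tested on simulated data. Alternatives covered scaling, low signals, arrays entering the fit, a replicate block, trended variance, 1 probe set per gene, the thresholds and leaving out each array.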

Additional observations from a re-analysis of the deposited data

Results flagged for a closer look

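For 15 of the genes described above, the TKO effect itself differed between ESCs and EBs, or between TKO and *Dnmt1-/-* ESCs, by limma's test of the difference. The values are log2 differences between 2 fold changes, for genes chosen by their day 0 value, which favours a shift back toward 0, and EB arrays hold other cell types than ESC arrays.

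Among genes that rose in TKO ESCs, the effect at day 4 was smaller than at day 0 for *Xlr5* (-2.51, SE 0.33, adjusted p = 0.00557), *Efhc2* (-2.14, SE 0.27, 0.00467) and *Ctcfl* (-1.61, SE 0.27, 0.0151), and larger for *Gpat2* (1.43, SE 0.28, 0.0245). At day 16 it was smaller for *Efhc2* (-1.18, adjusted p = 0.0233) and *Olfr307* (-1.49, 0.0352). At that day it was larger for *Dazl* (2.08, 0.0155), *Gpat2* (1.58, 0.00537) and *Nlrp4c* (1.47, 0.00713).

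Among genes that fell in TKO ESCs, the effect at day 4 lay above that at day 0 for *Sema6a* (3.96, SE 0.37, adjusted p = 0.00243), *Thbs1* (3.73, SE 0.69, 0.0225), *Adgrl2* (2.89, SE 0.39, 0.00574), *Fndc3c1* (2.84, SE 0.63, 0.0479) and *Nes* (2.72, SE 0.49, 0.0202). The same held for *Tagln* (2.51, 0.042), *Nnat* (2.15, 0.0414) and the mutated *Dnmt3b* (1.88, 0.0202). At day 16 it did for *Fndc3c1* (2.96, 0.0175), *Dnmt3b* (2.85, 0.000517) and *Sema6a* (1.72, 0.0185). The day 0 calls of *Thbs1*, *Fndc3c1*, *Nes*, *Tagln* and *Nnat* were lost without wt replicate 1, as given above. These differences use that array too, and whether they hold for single genes without it was not tested. *Dnmt3b*, whose wt signal at day 16 was 7.16 and 7.41 against 9.80 and 10.002 in ESCs, was also the named gene that differed between TKO and *Dnmt1-/-* ESCs (-1.99, SE 0.24, 0.0472).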

How the results depend on the processing

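The 2 arrays per group limit every count of calls. Of the 33 genes named by rule, none changed direction under any of 14 alternatives, 12 were called whichever array was left out and 8 under every alternative. Leaving out 1 array gave 43 to 111 calls in all (43 without TKO replicate 1, 48 without wt replicate 1), 33 to 99 higher and 7 to 57 lower (7 without wt replicate 1, 57 without wt replicate 2). It gave 6 to 10 germ line genes, 20.5% to 37.5% of called genes on the X, 0 to 1 calls between TKO and *Dnmt1-/-*, 25 to 118 between *Dnmt1-/-* and wt, 1000 to 1017 at day 4, 2041 to 2056 at day 16, and 156 to 299 and 903 to 1117 differences from day 0 at those days. Probe sets higher at day 0 and day 4 then numbered 26 to 32 and at day 16 29 to 47, those lower at both 0 to 4 and 0 to 9.

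A fit of the 4 arrays alone gave 4 lower, 42.3% on the X and 7 germ line genes. A fit of the 6 ESC arrays gave 29 calls in all, 28 higher, 1 lower, 47.1% on the X, 6 germ line genes and 0 between TKO and *Dnmt1-/-*. Replicate numbers were not taken as pairs, since the study's methods give independent experiments but no source ties a number to one of them. Deviations of same-numbered arrays correlated with r = 0.186 between wt and TKO ESCs, 0.186 to 0.341 among the ESC groups and 0.0409 to 0.501 over all 36 pairs of groups, 32 of them over 0.1. With the replicate block 179 probe sets were called, 107 higher and 72 lower, 4 differed between TKO and *Dnmt1-/-*, 770 effects differed between day 4 and day 0, and 4 and 20 were lower also at day 4 and day 16. Counting the false discovery rate over 5 comparisons together gave 249 calls, 170 higher, 79 lower and 24 between TKO and *Dnmt1-/-*, with 114 and 137 higher also at day 4 and day 16 and 11 lower also at day 16. Without the fold line 1934 were called at day 4 and 4720 at day 16, and 11 and 16 were lower also at those days.

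Further quantile normalization gave 1 call between TKO and *Dnmt1-/-* and 4 lower also at day 4, and trended variance 0 such calls. Centring each array on its median left 4 lower also at day 16, dropping the lowest 30% of signals 12, and 1 probe set per gene 14, with 47 calls between *Dnmt1-/-* and wt. List counts moved too. Leaving out 1 array gave 1 to 4 piRNA genes (6 with all arrays), 4 to 5 regulators (7), 4 to 7 X-linked entries (10), 1 to 3 methylation genes (3), 2 to 3 formative genes (4), 0 to 3 epithelial genes (2), 0 to 6 actin genes (3), 0 to 2 neural genes (3) and 0 to 1 imprinted genes (1). The 6 ESC arrays alone gave 1 piRNA gene, 4 regulators, 4 X-linked entries and 0 epithelial, actin, neural or imprinted genes, and the 4 arrays alone 1 piRNA gene, 6 X-linked entries and 0 of those same 4 lists. The block and the false discovery rate over 5 comparisons gave 3 meiotic genes and 1 Y-linked gene each, with 6 and 5 actin genes. The causes were not tested.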

Other observations

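Gene lists without a call in TKO ESCs differed between TKO and wt EBs. Of the 26 pluripotency genes, 18 were called higher and 1 lower in TKO EBs at day 4 and 22 higher at day 16, with median log2 fold changes of 1.95 and 2.22, where 2.11% and 2.4% of all probe sets were called higher. Of the 23 fibroblast and matrix genes, 17 were called lower at day 16, where 3.43% of all were. EBs are mixtures, so these counts compare their cell makeup as well as their levels.

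In ESCs, 29 probe sets passed the false discovery rate with a change under 2-fold. Another 200 were at least 2-fold higher and 301 at least 2-fold lower in TKO without passing it.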
